A study of Mus musculus with 2 samples.

Results

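Far intergenic LSD1 peaks are binding sites of LSD1, the histone demethylase encoded by Kdm1a, that lie in long stretches between genes, away from any protein-coding start. A peak was taken when its midpoint fell in no gene of any type of the GENCODE M21 annotation and more than 50 kb from every protein-coding transcript start. By this rule 8123 of the 59175 LSD1 peaks in the list were far intergenic, 13.7% (Wilson 95% interval 13.4 to 14.0%). Distance and annotation chose the peaks, and neither the score nor the sequence of a peak entered the rule.

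The study located LSD1 by ChIP-seq (sequencing of DNA that an antibody pulls down with its protein) in cultured brown adipocytes of the mouse, fat cells that burn lipid for heat. These primary cells were of strain C57BL/6 N, carried the genotype label Control, were at passage 2 to 3 and were harvested on day 10 of differentiation in a medium with insulin, dexamethasone, rosiglitazone, indomethacin, T3 and isobutylmethylxanthine. One group was an immunoprecipitate with an LSD1 antibody made in the laboratory of the submitters, the other an input DNA library of the same kind of cells without antibody, and each comprised 1 library. The analysis used the deposited peak list of the immunoprecipitate. The sources used here do not say whether cultures of several animals were pooled. With no expression values at hand the labelled cell type could not be checked against its markers. With 1 library a kind there is no replicate error and no test between conditions, and the 95% intervals below cover counting error only. The list gives no read counts, so the depth is unknown.

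As background, LSD1 removes methyl groups from lysines of histone H3, works with CoREST proteins and histone deacetylases, and in many cell types is found both at promoters and at enhancers, the distant elements that act on promoters through chromatin loops. Long intergenic stretches, often called gene deserts, commonly flank genes of development and of cell adhesion, and those that flank developmental regulators hold many known enhancers. Enhancers are CpG-poor as a rule and carry binding sites of sequence-specific factors such as AP-1, a dimer of Fos and Jun family proteins, TEAD factors of the Hippo pathway, RUNX factors, and basic helix-loop-helix factors that read E-boxes.

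The sequences below are centres of high-scoring far intergenic peaks and are not typical of the set. Over all far intergenic peaks the median score was 99.7 and the median GC content of the centre was 45.5%. Of 26 consensus sequences searched on both strands, the examples stand for the 6 with the highest share at far intergenic peaks relative to peak-free sequence of the same kind, among those found in at least 1% of the peaks. Each is the central 200 bp of the highest-scoring far intergenic peak with 1 match and no repeated 32-base word, read from the plus strand of the reference assembly (GRCm38, the chromosomes of mm10), with the match in capitals. The AP-1 peak lay at chr5:29864007-29865451, 100254 bp downstream of the nearest protein-coding start, that of Dnajb6, and had a score of 778. Its window was chr5:29864629-29864828. The CAGCTG E-box peak, at chr16:25058535-25059937 with a score of 1189, lay 227581 bp upstream of Tprg and was read from chr16:25059136-25059335. The TEAD peak, at chr4:53218771-53220215 with a score of 736, lay 59598 bp upstream of Abca1, which encodes a cholesterol exporter, and was read from chr4:53219393-53219592. The CACGTG E-box peak, at chr14:61681606-61683686 with a score of 1945, lay 75164 bp from Kcnrg and was read from chr14:61682546-61682745. The RUNX peak, at chr12:69496932-69498163 with a score of 449, lay 85480 bp from Vcpkmt and was read from chr12:69497448-69497647. The ZEB peak, at chr9:67632783-67634646 with a score of 730, lay 74012 bp upstream of Tln2 by GENCODE but 259 bp from an mRNA start of Tln2 in RefSeq, and was read from chr9:67633615-67633814. ZEB proteins are zinc finger repressors that bind the E-box form CACCTG. Capitals mark the consensus or its reverse complement:
AP-1 peak: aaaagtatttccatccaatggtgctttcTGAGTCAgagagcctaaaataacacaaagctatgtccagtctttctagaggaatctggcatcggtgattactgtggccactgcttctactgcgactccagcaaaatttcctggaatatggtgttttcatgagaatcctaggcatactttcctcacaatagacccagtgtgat
CAGCTG E-box peak: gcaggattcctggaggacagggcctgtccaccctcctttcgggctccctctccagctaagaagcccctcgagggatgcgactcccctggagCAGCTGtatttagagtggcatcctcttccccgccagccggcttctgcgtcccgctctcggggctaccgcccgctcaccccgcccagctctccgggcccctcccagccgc
TEAD peak: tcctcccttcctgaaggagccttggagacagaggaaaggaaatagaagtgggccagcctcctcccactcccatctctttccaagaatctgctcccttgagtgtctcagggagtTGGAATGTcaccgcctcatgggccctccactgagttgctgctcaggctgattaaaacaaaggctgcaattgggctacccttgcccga
CACGTG E-box peak: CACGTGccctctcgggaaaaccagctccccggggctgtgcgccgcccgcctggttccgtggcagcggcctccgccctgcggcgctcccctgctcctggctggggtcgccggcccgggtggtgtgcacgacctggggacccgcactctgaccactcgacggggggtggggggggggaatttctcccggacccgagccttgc
RUNX peak: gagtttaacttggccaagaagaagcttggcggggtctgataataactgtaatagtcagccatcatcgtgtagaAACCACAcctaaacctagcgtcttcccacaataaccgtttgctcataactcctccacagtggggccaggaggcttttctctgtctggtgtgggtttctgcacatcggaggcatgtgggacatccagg
ZEB peak: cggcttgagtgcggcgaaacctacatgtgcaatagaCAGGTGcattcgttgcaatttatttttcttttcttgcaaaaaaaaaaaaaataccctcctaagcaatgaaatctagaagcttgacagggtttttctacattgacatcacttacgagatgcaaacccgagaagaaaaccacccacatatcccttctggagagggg
The windows differed in composition. GC content was 42.5% in the AP-1 window and 41.5% in the ZEB window, 54.5% in the TEAD window and 50% in the RUNX window, and it reached 68.5% in the CAGCTG window and 75% in the CACGTG window. Both of the last lay beside the annotated start of a noncoding transcript, described further on.

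Far intergenic peaks were spread thinly over a large part of the genome. Sequence that meets the rule measured 955 Mb, 36.1% of the assembled sequence outside gaps, and held 8.50 peaks per Mb. All other sequence, genes and promoters included, held 30.2 per Mb. The ratio of far to other sequence was 0.282 (exact 95% interval 0.275 to 0.289). Peaks became sparser with distance, as the plot of peak density by distance shows. Between 50 and 75 kb from the nearest start, 1741 peaks gave 16.1 per Mb of intergenic sequence, against 18.55 per Mb at 25 to 50 kb. The density was 14.6 per Mb at 75 to 100 kb, 10.8 per Mb at 100 to 200 kb, 6.90 per Mb at 200 to 500 kb and 3.39 per Mb at 500 to 1000 kb. Beyond 1000 kb, 139 peaks remained, 1.89 per Mb (1.59 to 2.23). The median far intergenic peak lay 136643 bp from the nearest protein-coding start.

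**Figure D1:**
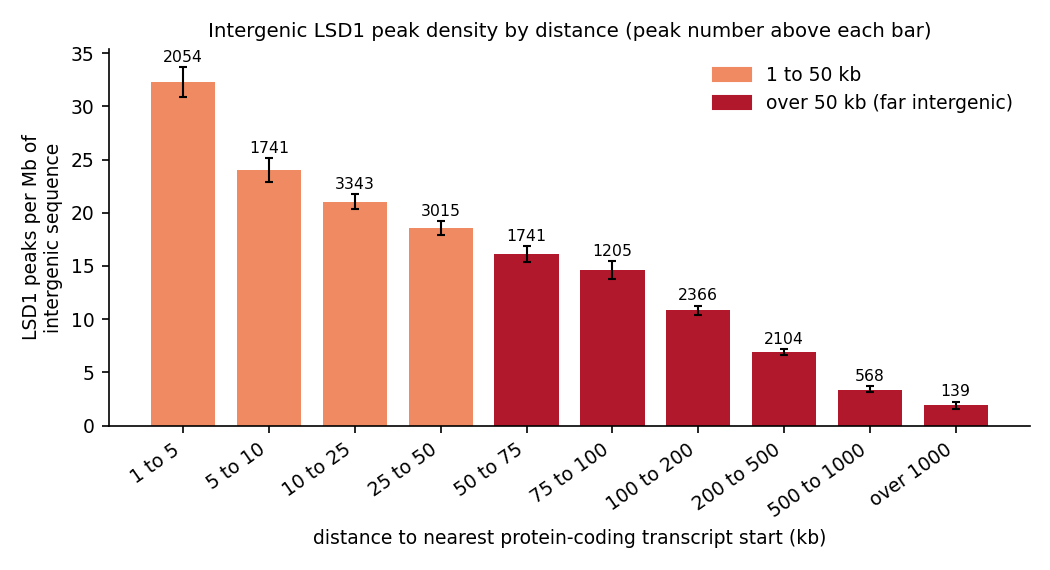
LSD1 peaks per Mb of intergenic sequence outside gaps, by distance from the nearest protein-coding transcript start in kb. Error bars are exact 95% Poisson intervals and the number above each bar is the number of peaks, and the density falls in each step from 32.3 per Mb at 1 to 5 kb to 1.89 per Mb beyond 1000 kb.

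The limit of 50 kb cut through a continuous range. The 3 peaks just inside it lay 50009 bp from Twist2 (score 243), 50032 bp from Prrc1 (score 81.9) and 50034 bp from Lurap1l (score 73.0). The 3 intergenic peaks just outside lay 49993 bp from Ankrd44 (score 84.4), 49980 bp from Trabd2b (score 94.4) and 49952 bp from Golga7 (score 88.4). In the 5 kb below the limit 466 intergenic peaks had a median score of 103.5, and in the 5 kb above it 438 peaks had a median of 101.8.

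Chromosomes differed in how densely far sequence was occupied. Among the autosomes the far density ran from 8.06 peaks per Mb on chromosome 14 to 13.9 on chromosome 13, where 572 far intergenic peaks made up 20.8% of the chromosome's peaks. Chromosome 9 followed with 13.1 per Mb. Chromosome X held 39 far intergenic peaks in 75.3 Mb of far sequence, 0.518 per Mb, and chromosome Y held 6 in 68.1 Mb. Peaks were also sparse in the other sequence of chromosome X, at 2.65 per Mb, so its low level was not limited to far sequence. Without chromosomes X and Y the density ratio of far to other sequence was 0.310.

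The farthest peaks stood more than 2000 kb from any protein-coding start. On chromosome 1, chr1:102338403-102338968 lay 2240925 bp from Cntnap5b, a neurexin-family adhesion gene, with a score of 108, and chr1:102286095-102286651 lay 2188612 bp from the same gene with a score of 87.0. Another peak of that desert, chr1:102627760-102628819, lay 2140239 bp from the cadherin gene Cdh20 and had a score of 343. In this peak 29.2% of all 32-base words occurred more than once in the genome. A peak on chromosome 18 with a score of 85.5 lay 2194832 bp upstream of Pik3c3, and chr14:82252184-82252725, with a score of 147, lay 2191108 bp upstream of the protocadherin gene Pcdh17. Of the 139 peaks beyond 1000 kb, 32.4% had at least 10% of repeated 32-base words, compared with 11.5% of all far intergenic peaks.

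Scores of far intergenic peaks were mostly low. The score is the authors' value for each peak, on a scale that the sources used here do not state, and serves only to rank peaks within the list. Its median was 99.7 (98.8 to 100.6), the quartiles were 83.6 and 134, and the range was 50.7 to 2497. Intergenic peaks at 1 to 50 kb had a median of 104 (103 to 105), peaks in genes but more than 50 kb from a start had 99.8, and promoter peaks, within 1 kb of a start, had 248 (242 to 255). In the plot of cumulative scores the curve of far intergenic peaks ran over that of peaks in genes beyond 50 kb, which lay closer to a start, at a median of 98968 bp. Below the list's median of 111 lay 60.5% of far intergenic peaks. The highest-scoring 10% of the list, with scores from 391, included 189 far intergenic peaks, which is 2.33% of them (2.02 to 2.68%). That share was 4.46% for intergenic peaks at 1 to 50 kb, 2.48% for distant peaks in genes and 33.0% for promoter peaks. The median width was 598 bp, against 611 bp for intergenic peaks at 1 to 50 kb and 933 bp for promoter peaks.

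**Figure D2:**
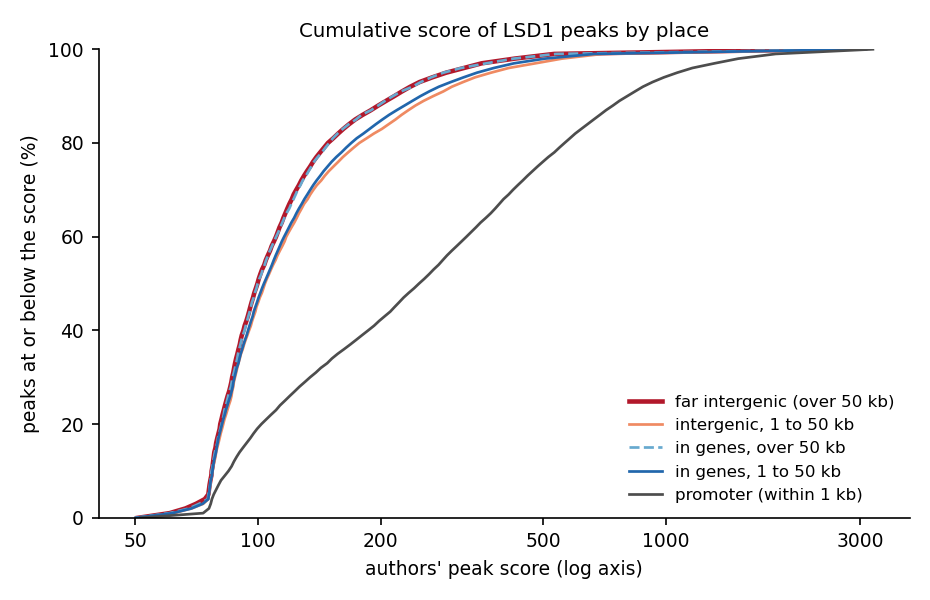
Share of peaks in percent (vertical axis) at or below the authors' peak score (horizontal axis, logarithmic) for 5 classes of LSD1 peaks by place. The curve of far intergenic peaks, median 99.7, runs over that of distant peaks in genes, median 99.8, and well to the left of promoter peaks, median 248.

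The 10 highest-scoring far intergenic peaks were a mixed group. The first, chr12:97061060-97061996 with a score of 2497, lay 1181937 bp from Galc, which encodes a lysosomal galactosidase. In this peak 33.3% of the 32-base words also occurred in the mitochondrial genome. Another 2 far intergenic peaks shared words with mitochondrial DNA, chr6:9889796-9890597 near Nxph1 (score 572, 17.1% of words) and chr5:60042570-60043431 near G6pd2 (score 453, 20.3% of words), and they were chosen for display after their values were seen. All 3 stood in the highest-scoring 10% of the list, and the part of mitochondrial DNA in their scores was not tested. The fifth by score, chr6:3200363-3202001 with 1614, lay 183824 bp from Samd9l and had 63.9% repeated words.

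Several of the top 10 stood at starts of other transcripts. The second, chr14:61681606-61683686 with a score of 1945, had its midpoint 273 bp from a start of the long noncoding RNA gene Dleu2, and its centre is the CACGTG sequence above. The third, chr4:133812679-133815068 with 1925.5, lay 57105 bp upstream of Arid1a, a subunit gene of the SWI/SNF chromatin remodelling complex, and inside Gm34296, a protein-coding gene in RefSeq, 1271 bp from its start. The fourth, chr13:107889611-107892137 with 1675, lay 153572 bp from the protein-coding start of Smim15 and 810 bp from a start of Zswim6, annotated as a processed transcript by GENCODE and as an mRNA by RefSeq. The ninth, chr16:25058535-25059937 with 1189, had its midpoint 403 bp from the start of the lincRNA gene A230028O05Rik, and its centre is the CAGCTG sequence above.

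The remaining 4 also lay more than 1 kb from any annotated transcript start. The peak chr2:30711830-30713757, with a score of 1518, lay 88913 bp downstream of 1700001O22Rik, had 43.5% GC in its centre and a CpG observed over expected ratio of 0.106. The peak chr17:83978633-83980117, with 1385, lay 132563 bp upstream of Haao, an enzyme gene of the kynurenine pathway, and had a ratio of 0.0712. The peak chr11:109011153-109012273, with 1216, lay 88532 bp downstream of Axin2, an inhibitor of Wnt signalling. The peak chr15:81521528-81523767, with 1177, lay 56007 bp downstream of Rbx1, a subunit gene of cullin ubiquitin ligases, and its centre had a ratio of 1.05.

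A minority of far intergenic peaks lay at starts of transcripts that the rule did not count. A start of a GENCODE gene that is not protein-coding lay within 1 kb of the midpoint of 208 peaks (2.56%, 2.24 to 2.93%), of which 104 were lincRNA starts and 35 starts of processed pseudogenes. In RefSeq, 314 peaks (3.87%) lay within 1 kb of a transcript start and 27 within 1 kb of an mRNA start. RefSeq placed 1125 midpoints (13.9%) inside a gene, for 966 of them a long noncoding RNA gene and for 103 a protein-coding gene. By both annotations together 6777 peaks (83.4%) remained outside genes and more than 50 kb from protein-coding or mRNA starts. The 417 peaks with any such start within 1 kb had a median score of 112 (105 to 119), and the 7706 without had 99.3 (98.3 to 100.2).

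Near one RefSeq mRNA start, an upstream start of Ppargc1a, stood 2 peaks. Ppargc1a is the coactivator gene of the thermogenic and mitochondrial programme. Both peaks were singled out after their values were seen. The peak chr5:52113234-52115197, with a score of 884.5, lay 1240 bp from this start and the peak chr5:52115474-52116491, with 459, lay 130 bp from it. GENCODE M21 has no protein-coding start there, and the nearest one, of Dhx15, lay 76273 bp and 74506 bp away.

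Far intergenic peaks were CpG-poor but richer in GC than far intergenic sequence without peaks. The median GC content of the central 200 bp was 45.5%, against 39.5% in 94870 windows of 200 bp tiled every 10 kb over far intergenic sequence without peaks, and 48.5% in intergenic peaks at 1 to 50 kb. The median CpG observed over expected ratio was 0.168 (0.163 to 0.172), against 0.126 in the tiled windows, 0.200 in intergenic peaks at 1 to 50 kb and 0.735 in promoter peaks. Both measures fell with distance, from 48% GC and a ratio of 0.191 at 50 to 75 kb to 40% and 0.104 beyond 1000 kb. Soft-masked repeats covered a median of 11% of the central bases in far intergenic peaks and 32% in the tiled windows.

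A small CpG-rich set stood apart in score. At least 50% GC together with a ratio of at least 0.6 in the centre was met by 162 peaks (1.99%, 1.71 to 2.32%) and by 0.437% of the tiled windows. Their median score was 174 (136 to 209), and that of the 7961 others was 99.1 (98.2 to 100). Of the 162, 46 had an annotated start of another transcript within 1 kb and a median score of 276 (174 to 400), and 116 had none and a median of 152 (122 to 184). The intervals of these last 2 groups overlapped.

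The AP-1 consensus, TGACTCA or TGAGTCA, was found in the central 200 bp of 715 far intergenic peaks, 8.80% (8.21 to 9.44%), and in 2.94% (2.83 to 3.05%) of the tiled windows, a ratio of 2.99. The share was 8.05% (7.53 to 8.59%) in intergenic peaks at 1 to 50 kb, an interval that overlaps that of far intergenic peaks, and 7.35% (6.77 to 7.99%) in peaks in genes beyond 50 kb, an interval that does not. The last were not matched for distance. Promoter peaks had 2.33%. Compared within 6 ranges of GC content, the share was higher in peaks than in windows in each, but in the lowest range the intervals overlapped. Below 35% GC the share was 3.51% in peaks and 2.32% in windows, with intervals of 2.26 to 5.42% and 2.14 to 2.52%. At 45 to 50% GC it was 9.42% against 3.30%, and at 50 to 55% GC 12.3% against 3.01%.

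Matches of AP-1 went with the score and with the middle of the peak. In the lowest score quartile of far intergenic peaks 7.09% (6.05 to 8.29%) had a match, in the next 2 quartiles 7.53% and 8.12%, and in the highest 12.5% (11.1 to 14.0%). The median GC content of the centre was 44.5% in the lowest quartile and 48% in the highest. Score quartiles were not compared within ranges of GC content. Peaks with a match had a median score of 109 (105 to 114) and those without 99.0 (98.0 to 99.98). The 38 peaks with 2 or more matches had a median of 129.5 (105 to 177). Around the midpoint, the plot of match positions shows 24.7 matches per 1000 peaks in the 50 bp before it, and 11.5 and 10.2 in the outermost bins at 450 to 500 bp on either side. The rise was not particular to far intergenic peaks. In the same bins, intergenic peaks at 1 to 50 kb had 21.8, 11.4 and 12.6, and distant peaks in genes 19.7, 10.9 and 12.8.

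**Figure D3:**
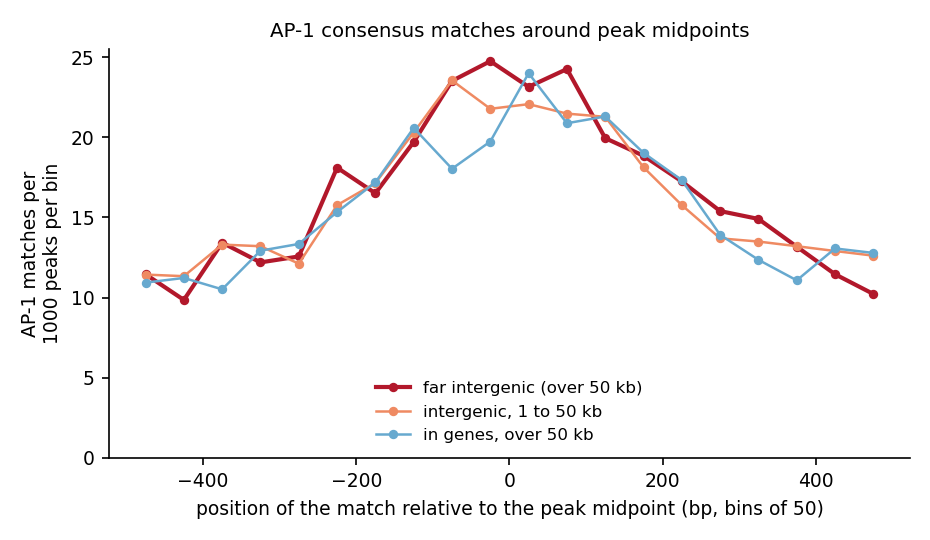
AP-1 consensus matches per 1000 peaks in bins of 50 bp (vertical axis) by position relative to the peak midpoint in bp (horizontal axis), for far intergenic peaks, intergenic peaks at 1 to 50 kb and distant peaks in genes. In far intergenic peaks matches reach 24.7 per 1000 peaks beside the midpoint and fall to 11.5 and 10.2 in the outermost bins.

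Among the consensus sequences found in at least 1% of the peaks, the E-box CAGCTG came next by ratio to the tiled windows, at 2.03. Within the 6 ranges of GC content its ratio was lower, between 1.27 and 1.66, and below 35% GC the intervals of peaks and windows overlapped. This form, read by many tissue-specific basic helix-loop-helix factors, was found in 11.8% (11.1 to 12.5%) of far intergenic peaks and 5.83% of the tiled windows, and in 13.4% of intergenic peaks at 1 to 50 kb. CACGTG, the form read by clock and Myc family proteins, was found in 2.01% and 1.38%. The ZEB form CACCTG was found in 11.6% and 10.3%, and in 15.1% of intergenic peaks at 1 to 50 kb. The 3 forms are distinct, so no match counted for more than one. CACGTG and CACCTG were not compared within ranges of GC content, and the windows had the lower GC content. The TEAD consensus ACATTCCA was found in 1.74% (1.47 to 2.04%) of far intergenic peaks and 0.980% of the windows, and the RUNX consensus TGTGGTT in 5.71% and 4.35%. Within ranges of GC content the RUNX intervals of peaks and windows were separate at 40 to 45% and 45 to 50% GC, and overlapped in the other 4 ranges. At 35 to 40% GC, RUNX shares were 5.43% in peaks and 5.19% in windows, and below 35% they were 3.70% and 4.28%.

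**Figure D4:**
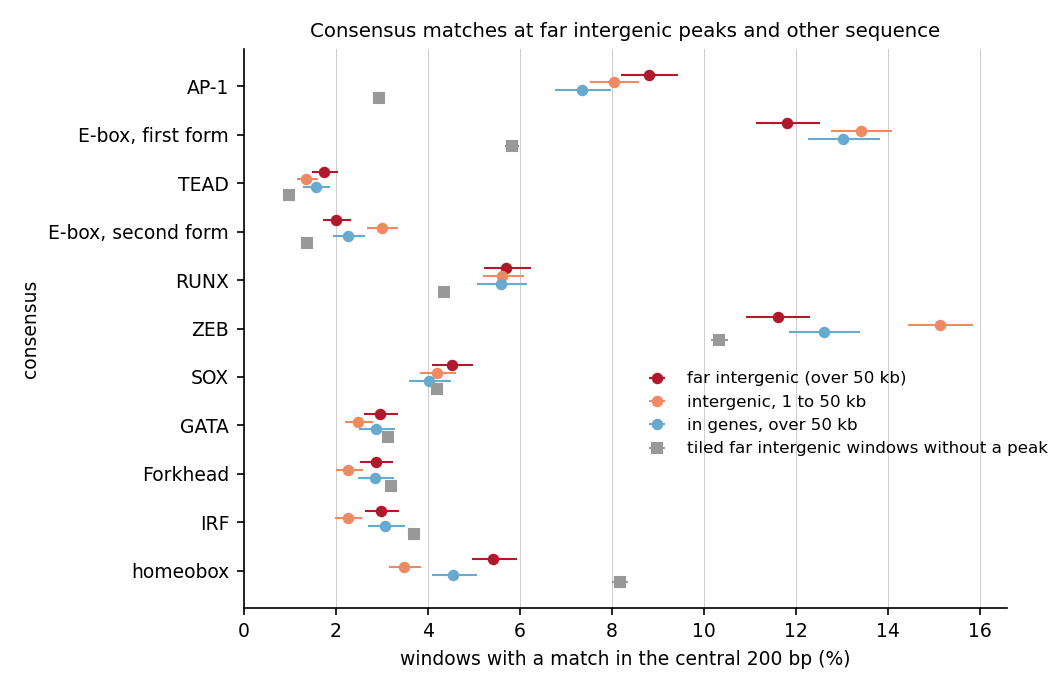
Share of 200 bp windows in percent (horizontal axis) with a match to each consensus found in at least 1% of far intergenic peaks, for far intergenic peaks, 2 other classes of distal peaks and tiled far intergenic windows without a peak, with Wilson 95% intervals as bars. E-box, first form is CAGCTG and second form CACGTG, and AP-1 shows the widest ratio to the tiled windows, 8.80% against 2.94%, while homeobox matches lie lower at peaks, 5.43% against 8.19%.

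Rarer consensus sequences gave small counts and were not compared within ranges of GC content. The long CTCF consensus, of the insulator protein that anchors chromatin loops, was matched in 42 far intergenic peaks (0.517%) and 0.0538% of the tiled windows, while intergenic peaks at 1 to 50 kb had 1.18%. EBF, of an early B-cell factor family that also acts in brown fat (TCCC and GGGA 2 bases apart), was matched in 55 peaks (0.677%) against 0.231% of windows, and C/EBP in 39 (0.480%) against 0.220%. The PPAR direct repeat was matched in 6 peaks (0.074%) against 0.022% of windows. The glucocorticoid receptor consensus was matched in 13 (0.16%) against 0.112%, with overlapping intervals. NFI (TTGGC and GCCAA 5 bases apart) was matched in 5 (0.062%) against 0.015%. In the other direction, the homeobox core TAATTA was found in 5.43% (4.96 to 5.94%) of far intergenic peaks and 8.19% of the windows, which have the lower GC content. An exact consensus misses weaker sites, and a match is a string of letters, not a measured binding event.

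With a limit of 10 kb between neighbours, far intergenic peaks occurred singly more often than in groups. With a limit of 25 kb this reversed, and 59.2% had another. The median distance to the next far intergenic peak was 16.1 kb, and 3271 (40.3%) had another within 10 kb. Counting peaks of every class, the median distance to the next was 13.5 kb, against 5.24 kb for intergenic peaks at 1 to 50 kb and 10.9 kb for distant peaks in genes. When midpoints at most 10 kb apart were joined into runs, 4852 peaks stood alone, 849 runs had 2 peaks and 160 runs had 4 or more, with 805 peaks in these.

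The largest run held 15 peaks in 36.8 kb at chr2:30689951-30726778, between Cstad and 1700001O22Rik. Its scores had a lowest value of 78.7, a median of 220 and a highest of 1518, the sixth-highest far intergenic score, and 2 of its peaks had an AP-1 match. The next held 12 peaks at chr12:8418387-8447297, 53.0 to 81.3 kb from Rhob, which encodes a small GTPase, with scores from 51.0 to 157.5 and a median of 97.7. In this run 0 peaks had an AP-1 match. A run of 11 at chr15:59755275-59786606 lay 107 to 138 kb from Trib1, a pseudokinase gene that influences lipid metabolism, with a median score of 127 and a highest of 863.5. Of 2 runs with 10 peaks, 1 lay between Rxra and Col5a1 at chr2:27786300-27813438, with a median score of 124, a highest of 505 and AP-1 matches in 4 peaks. Rxra encodes the partner receptor of PPARγ, and Col5a1 a fibrillar collagen. The other lay between Npvf and Nfe2l3 at chr6:51161306-51191376, with a median of 105 and a highest of 275.

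**Figure D5:**
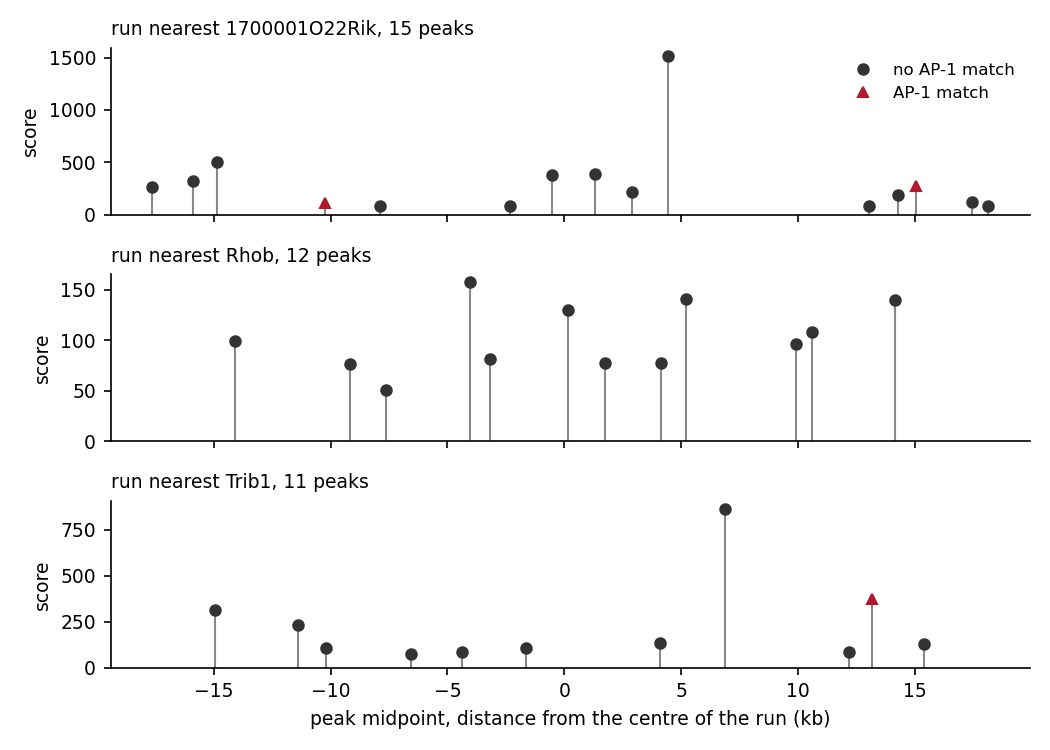
Score (vertical axis, own scale in each panel) of each far intergenic peak in the 3 runs with the most peaks, by distance of its midpoint from the centre of the run in kb. Triangles mark peaks with an AP-1 match, and the run near Rhob stays at or below a score of 157.5 while those near 1700001O22Rik and Trib1 reach higher, with highest scores of 1518 and 863.5.

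Each far intergenic peak was then set beside the gene with the nearest protein-coding start, which says nothing about the gene it acts on. Of 5204 protein-coding genes that own at least 1 kb of far sequence in this sense, 2476 (47.6%) had at least 1 far intergenic peak, and 937 of them had exactly 1. This share rises with the sequence owned, since 225 genes had a peak and 1076 had none in the lowest quartile by owned sequence, while 931 had a peak and 370 had none in the highest. On autosomes alone 52.7% of 4625 genes had a peak. A group of 141 genes with 10 or more peaks held 1921 of them, 23.6%. Upstream of the nearest start lay 4405 peaks, 54.2% (53.1 to 55.3%). The rule drops midpoints inside genes, and a gene's body lies downstream of its start. The upstream share of the far sequence itself was not computed, so no preference for a side can be read from this.

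The 5 genes with the most far intergenic peaks owned between 0.133 Mb (Irf2bp2) and 1.81 Mb (Adgrl2) of far sequence. Zfp608, a zinc finger gene, had 33 peaks between 105 and 695 kb from its start, with a median score of 102.5 and a highest of 464. Adgrl2, an adhesion G protein-coupled receptor of the latrophilin family, had 26 peaks, 75.03 to 906 kb away, with a highest score of 328. Zeb2, a ZEB family repressor, had 24 peaks, all upstream, from 209 to 1628 kb, with a highest of 417. Irf2bp2, a corepressor that binds IRF2, had 23 peaks within 52.7 to 172 kb, in only 0.133 Mb of owned sequence, with a median score of 147 and a highest of 359. Klf4, a Krüppel-like factor that takes part in early adipogenesis, also had 23, all upstream at 119 to 590 kb, with a highest of 499.5 at chr4:55650719-55652380.

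Genes with far intergenic peaks more often had a peak at their own promoter as well. A peak centred within 1 kb of a protein-coding start was found for 68.8% (66.97 to 70.6%) of the 2476 genes with a far intergenic peak and for 43.6% (41.8 to 45.5%) of the 2728 without. Among autosomal genes the shares were 69.5% and 52.5%. Within quartiles of owned sequence, on autosomes, they were 70.2% against 55.2%, 74.3% against 52.9%, 69.3% against 48.5% and 66.7% against 43.6%. Genes with 10 or more had a promoter peak in 81.6% (74.4 to 87.1%). Klf4 had one with a score of 1329 and Adgrl2 one of 805, Zeb2 one of 79.7, and Zfp608 and Irf2bp2 had none centred there.

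Gene lists were read against the 47.6% of all eligible genes, with no test of a list. Their eligible members owned a median of 45.9 to 964 kb of far sequence, against 62.8 kb over all 5204 genes, and the share with a peak rises with owned sequence. Members without a peak are named below after their values were seen. The intervals of list densities treat peaks as independent, although 40.3% of far intergenic peaks had another within 10 kb. Of the 17 eligible adipogenic transcription factors, 13 had a far intergenic peak (76.5%, 52.7 to 90.4%), with 81 peaks at 25.6 per Mb (20.4 to 31.9). An AP-1 match was found in 16.05% of these peaks, and 5 of the matched peaks belonged to Cebpb, 3 to Rxra and 3 to Klf4. Over the 12 lists the AP-1 share ran from 4.17% (AP-1 and Maf genes) to 26.7% (clock genes), and it was 8.80% over all far intergenic peaks. Cebpb, an early factor of fat cell differentiation, had 12 peaks in 0.0657 Mb, 54.4 to 112 kb downstream, with scores of 75.7 to 531 and AP-1 matches in 5. Its highest lay at chr2:167789032-167790630. Rxra had 7, the highest at chr2:27792730-27794345 with a score of 505. Klf4 is described above, and Tcf7l2, a Wnt effector, had 3 with a highest of 434. Pparg, the master regulator of fat cell differentiation, owned far sequence and had none, as did Ebf3, Zfp423 and Gata2.

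Glucocorticoid response genes had the densest far sequence of the 12 lists. All 5 eligible members had a far intergenic peak (interval 56.6 to 100%), 35 peaks in 0.314 Mb or 112 per Mb (77.6 to 155). The peaks of Cebpb, Sgk1, Errfi1 and Klf9 all lay within 132 kb of the start, and at 50 to 75 kb the density over the genome was 16.1 per Mb. The other 13 of the 18 list members owned less than 1 kb of far sequence and could not be scored. Besides Cebpb, Sgk1, a kinase induced by glucocorticoids, had 11 peaks, all upstream at 52.5 to 132 kb, with scores of 75.8 to 189.5 and a median of 87.3. Errfi1, an inhibitor of EGF receptor signalling, had 8, all upstream at 53.9 to 86.2 kb, with a highest of 356 at chr4:150784267-150785527. Klf9 had 1 peak with a score of 92.3. Cebpb stands in both lists and gives 12 of the 35 peaks here.

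Thermogenic and identity genes of brown fat had a far intergenic peak in 10 of 14 cases (71.4%, 45.4 to 88.3%), an interval that includes the background, at 10.1 peaks per Mb (7.17 to 13.8). Another 16 of the 30 list members, Ucp1 and Prdm16 among them, owned less than 1 kb of far sequence and could not be scored. Ppargc1a had 7 peaks, 120 to 329 kb from its GENCODE start, with a highest score of 159 at chr5:51842493-51843371. The 6 upstream ones, this peak among them, lay between that start and the upstream RefSeq start of Ppargc1a described above. The 2 peaks near the RefSeq start, with scores of 884.5 and 459, were counted for Dhx15. Zfp516, a zinc finger activator of Ucp1, had 7 with a highest of 209, Fgf9, a fibroblast growth factor, 6 with a highest of 154, and Bmp7, a bone morphogenetic protein that promotes brown fat formation, 5 with a highest of 146. Eligible members without a peak were Ppargc1b, Dio2, Irf4 and Esrrb. Genes of white fat, together with repressors of brown fat genes, had a peak in 6 of 9 cases (66.7%, 35.4 to 87.9%). Tle3, a corepressor that favours the white programme, had 16 peaks with a highest of 284, Foxp1 had 9 with a highest of 238, Nrip1, the corepressor RIP140, 7 with a highest of 203, and Psat1, of serine synthesis, 2 with a highest of 192.

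Developmental transcription factors, which often border gene deserts, had a far intergenic peak in 47 of 60 cases (78.3%, 66.4 to 86.9%), 286 peaks in all at 13.9 per Mb (12.4 to 15.6). Their eligible members owned a median of 246 kb of far sequence, against 62.8 kb over all eligible genes. A share matched for owned sequence was not computed. The LIM homeobox gene Lhx2 had the highest score among them, 1172.5 at chr2:38417693-38418912, 65.8 kb downstream. Gata6, a GATA factor, had 6 peaks with a highest of 615, Id4, an inhibitor of helix-loop-helix factors, 6 with a highest of 514, and Osr1, an odd-skipped factor, 7 with a highest of 495. Members without a peak included Pax6, Pax7 and Twist1.

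Signal genes of the Wnt, TGF-β, BMP and FGF pathways had one in 22 of 26 cases (84.6%, 66.5 to 93.9%) at 22.7 per Mb (18.5 to 27.5). Wnt7b, a Wnt ligand, had 1 peak with a score of 788 at chr15:85634271-85635514, 52.4 kb upstream. Fgf18 had 3 with a highest of 515, Tgfbr2, a TGF-β receptor gene, 10 with a highest of 372, and Inhbb, an activin subunit gene, 3 with a highest of 358. Preadipocyte and fibroblast markers had a far intergenic peak in 12 of 15 cases (80%, 54.8 to 93.0%) at 26.4 per Mb. Col1a1, a collagen chain gene, had 6 peaks in 0.0260 Mb with a highest of 273, Fn1, the fibronectin gene, 11 with a highest of 279, Thy1, a surface antigen gene, 4 with a highest of 341, and Cd34 1 with 237. Lipid storage genes mostly lie among other genes, and 22 of the 28 owned less than 1 kb of far sequence. Of the 6 eligible, 4 had a peak (66.7%, 30 to 90.3%), an interval that includes the background. Lpl, lipoprotein lipase, had 2 with scores of 256.2 and 469, Lpin1, a phosphatidate phosphatase, 5 with a highest of 354, Gpam, an acyltransferase, 8 with a highest of 159, and Cd36, a fatty acid transporter, 2 with a highest of 146.

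Clock genes had a far intergenic peak in 6 of 8 cases (75%, 40.9 to 92.9%). Arntl, which encodes the clock activator BMAL1, had 8 peaks within 53.0 to 64.9 kb upstream, in 0.0349 Mb, with scores of 82.4 to 554 and AP-1 matches in 3. Rora had 3 with a highest of 188.5, Npas2 had 1 with 173.5 and Bhlhe40 1 with 100.7. AP-1 and Maf genes had a peak in 4 of 5 cases, among them Maf with 17 and a highest of 265, Jun with 4 and a highest of 114, and Nfe2l2 with 2 and a highest of 105. Fos had none. LSD1 and its partner proteins also had one in 4 of 5 eligible cases. Ctbp2, a corepressor, had 4 with a highest of 226.5, the deacetylase gene Hdac2 4 with a highest of 184, and the zinc finger gene Zmym2 1 of 103. For these 3 lists the intervals of the share include the background.

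Neuronal adhesion genes, which sit in the largest deserts, stood at the other end in density. A far intergenic peak was present for 26 of 32 (81.25%, 64.7 to 91.1%). The 39.0 Mb they own held 80 peaks, 2.05 per Mb (1.63 to 2.55), against 8.50 per Mb over all far sequence. These genes owned a median of 964 kb each, and over the genome the density fell with distance. It was 6.90 per Mb at 200 to 500 kb, 3.39 at 500 to 1000 kb and 1.89 beyond 1000 kb. A density matched for distance was not computed. Cntnap2, a neurexin-family gene, had 6 peaks with a highest score of 666 at chr6:44792510-44793596, in which 29.0% of words were repeated. Cdh6, a cadherin gene, had 6 spread from 50.8 to 1315 kb with a highest of 182, Pcdh10, a protocadherin gene, 3 with a highest of 207.5, and Lrp1b, a lipoprotein receptor family gene, 3 with a highest of 204.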

How the data were processed

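The data are 1 peak list of an LSD1 ChIP-seq library from differentiated primary brown adipocytes. Per the labels, reads were mapped to mm10 with Bowtie2, and the submitters' processing notes name MACS 1.41. Read filters, peak threshold, score scale and the use of the input are not stated in those sources. The score of each peak is used as deposited by the authors.

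Midpoints were placed on GRCm38.p6 with GENCODE M21 (54327 protein-coding start positions) using Python 3.11.15, numpy 2.4.6 and scipy 1.17.1. Repeated words are 32-base words found more than once in the genome. Shares carry Wilson, medians order-statistic, and densities exact Poisson 95% intervals. The steps were tested on simulated data. All 338 entries of 12 gene lists matched. The peaks, lists and rules were chosen with earlier results of these data known. Named were the 10 highest-scoring peaks, the 5 farthest, the 3 on each side of the limit, the 5 genes and 5 runs with most peaks, up to 4 genes of each list by highest score, and 6 sequences. Some genes that this rule names are not reported here. Because there is 1 library a kind, no test or p-value was computed. Other distance limits, annotations, score minimums and windows were tried.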

Additional observations from a re-analysis of the deposited data

How the results depend on the processing

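No paired analysis was possible because each group has 1 library and no result comes from a test. Alternatives were run for 7 quantities (number, density ratio, median score, width, AP-1 share, CpG ratio and spacing). The statement on spacing, that peaks occurred singly more often than in groups, held at 10 kb. It reversed at 25 kb, where 59.2% of far intergenic peaks had another. The density ratio did not reverse. For the number, the medians and the AP-1 share no direction was set, so none could reverse. The alternatives give no AP-1 share for the tiled windows. Gene lists, promoter peaks, comparisons of classes and other consensus sequences had no alternative. The number of peaks was 11138 with a limit of 25 kb, 9930 when only protein-coding genes excluded a peak, 5177 with a limit of 100 kb, 2837 when starts of transcripts of every type counted, and 4030 with a score of at least 100. The density ratio stayed below 1 throughout: 0.317 with a limit of 25 kb, 0.236 with 100 kb, 0.274 when the whole peak had to meet the rule, 0.271 with starts of every type, 0.295 when only protein-coding genes excluded a peak, 0.233 with a score of at least 100, 0.310 without chromosomes X and Y, and 0.229 when peaks also had to be far by RefSeq. That RefSeq setting was added after seeing the data. The median score was 98.2 with 100 kb, 98.1 with starts of every type and 135 with a score of at least 100, which follows from that minimum. The AP-1 share was 8.14% with starts of every type, 10.3% with a score of at least 100, 4.42% in the central 100 bp and 15.2% in the central 400 bp, where the window itself sets how much sequence is searched. The median width ran from 596 to 672.5 bp, the median CpG ratio from 0.147 to 0.179, and the share with another peak within the joining distance from 27.4 to 59.2% over their alternatives. The cause of the other changes was not tested. An unknown depth limits the list: weaker sites may be missing, and low density and low depth cannot be told apart.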
